A study of Homo sapiens with 6 samples.

Results

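Long intergenic noncoding RNA (lincRNA) genes were described here in CB1-overexpressing and Vector MDA-MB-231 cells. The members were the genes annotated as lincRNA with a mean of at least 0.2 FPKM (fragments per kilobase of exon, scaled to library size) over the 6 libraries, 1128 of the 7629 lincRNA genes in the tables. The lowest members lay just above that minimum, at 0.2002 FPKM for AC022973.3 and 0.2003 FPKM for AL731563.3, and the first genes below it were LINC01545 at 0.1996 FPKM and AL136115.2 at 0.1985 FPKM. Of the 6501 lincRNA genes below the minimum, 4014 had no count in any library.

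MDA-MB-231 is a triple-negative breast cancer line of basal, mesenchymal-like character, and CB1 is the cannabinoid receptor encoded by CNR1. The 3 CB1 libraries came from a stable line transduced with a lentiviral pCDH construct for CB1 and carry CB1 in the treatment label, and the 3 Vector libraries came from the vector line and carry DMSO there. Whether either line is a single clone or a pool is not given in the labels. The authors' methods for their stable lines speak of pooled clones that were screened by western blot. Nothing in the labels says that the libraries of a group were separate cultures, and p-values therefore measure the spread between these libraries, which may be technical. CNR1 had 6465, 7703 and 7353 counts in the CB1 libraries and 7, 6 and 4 counts in the Vector libraries.

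LincRNAs are transcribed and often spliced and polyadenylated like messenger RNAs but lie between protein-coding genes and carry no long reading frame. Some act as RNA in the nucleus, as NEAT1 does in scaffolding paraspeckles and XIST in silencing an X chromosome, some bind proteins in the cytoplasm, as NORAD does with Pumilio proteins, and others serve as hosts from which a microRNA (miRNA) or small nucleolar RNA is cut. Most are expressed at low levels and in few cell types, and many have no known role.

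Total counts ran from 17804240 to 18833661 in the CB1 libraries and from 16957881 to 17447521 in the Vector libraries, of which lincRNA genes took 0.389 to 0.419% in CB1 and 0.433 to 0.450% in Vector. All 10 genes fixed as markers of MDA-MB-231 were measured, among them VIM at 361 to 464 FPKM in CB1 and 285 to 297 FPKM in Vector, while of the 5 genes fixed as low or absent, ESR1, PGR and CDH1 had no more than 15 counts in any library. The other two were present, ERBB2 at 7.97 to 8.79 FPKM in CB1 and 8.16 to 8.33 FPKM in Vector and GATA3, which was higher in CB1, at 1.49 to 1.65 FPKM in CB1 and 1.13 to 1.25 FPKM in Vector. CB1 replicate 1 stood apart from the other CB1 libraries by transcript length. Among protein-coding genes with at least 50 counts per library, its median log2 difference from the mean of the other two CB1 libraries was 0.30 for exonic lengths under 2000 bases and -0.11 for lengths of 5000 bases or more. Among members the same medians were 0.10 over 73 genes and -0.13 over 46 genes. For some of the named members, results without this library are also given.

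The miRNAs inside members that passed the test are shown because their hosts carry several of the changes described below. The hosts shown were chosen after their values were seen, and the mature miRNAs themselves were not measured. Sequences are from RefSeq on GRCh38.p14, 5′ to 3′, with the seed (bases 2 to 8) in capitals. Among the hosts shown, those that fell contain miR-146a (MIR3142HG), miR-221 and miR-222 (MIR222HG), miR-503 (MIR503HG) and miR-29b and miR-29c (MIR29B2CHG), and those that rose contain miR-210 (MIR210HG) and miR-137 (MIR137HG). The mature miR-29b printed here is also encoded on chromosome 7 inside AC016831.6, which passed as higher, and inside LINC-PINT, which did not pass.
hsa-miR-146a-5p: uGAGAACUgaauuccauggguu
hsa-miR-221-3p: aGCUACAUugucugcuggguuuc
hsa-miR-222-3p: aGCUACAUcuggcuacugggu
hsa-miR-503-5p: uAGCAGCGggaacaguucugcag
hsa-miR-29b-3p: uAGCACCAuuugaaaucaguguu
hsa-miR-29c-3p: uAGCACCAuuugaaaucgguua
hsa-miR-210-3p: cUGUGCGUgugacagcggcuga
hsa-miR-137-3p: uUAUUGCUuaagaauacgcguag
The miR-221 and miR-222 sequences share the seed GCUACAU, and miR-29b and miR-29c share AGCACCA. The remaining 4 seeds differ from these and from each other.

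Promoters were read from the same RefSeq build, from 250 bases before to 50 bases after the annotated start. The table held 231 of the 1128 members by symbol, chromosome and strand, and 204 of these started within 1000 bases of the start in the count tables. Promoters are printed for LINC01411 and MYOSLID, which are among the largest rises, for LINC00705 and MANCR, which overlap on opposite strands and both fell, and for NORAD, the most abundant member. The RefSeq start of LINC00705 lies 729 bases from the start used for the counts, and its printed stretch falls inside the counted gene. Capitals mark matches on either strand to any of the motifs searched, with overlapping matches joined. These were the motif of the AP-1 factors with the letters TGACTCA, the cyclic AMP response element with TGACGTCA, the TATA box with TATAAA, the E-box with CACGTG, the motif of the ETS factors with CCGGAAG, the GC box with GGGCGG and the CCAAT box with its own letters.
LINC01411, chr5:174336104-174336403, plus strand: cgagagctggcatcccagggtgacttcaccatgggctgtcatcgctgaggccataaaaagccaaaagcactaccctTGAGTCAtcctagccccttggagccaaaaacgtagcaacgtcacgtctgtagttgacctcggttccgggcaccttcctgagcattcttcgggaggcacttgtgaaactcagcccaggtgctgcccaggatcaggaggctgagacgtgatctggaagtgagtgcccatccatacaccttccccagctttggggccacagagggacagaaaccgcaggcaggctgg
MYOSLID, chr2:207239561-207239860, plus strand: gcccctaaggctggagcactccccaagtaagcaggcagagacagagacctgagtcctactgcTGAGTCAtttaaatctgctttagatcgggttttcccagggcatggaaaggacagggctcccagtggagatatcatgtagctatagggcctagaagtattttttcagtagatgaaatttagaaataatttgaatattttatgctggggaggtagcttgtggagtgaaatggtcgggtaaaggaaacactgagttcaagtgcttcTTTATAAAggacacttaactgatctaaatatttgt
LINC00705, chr10:4655906-4656205, plus strand: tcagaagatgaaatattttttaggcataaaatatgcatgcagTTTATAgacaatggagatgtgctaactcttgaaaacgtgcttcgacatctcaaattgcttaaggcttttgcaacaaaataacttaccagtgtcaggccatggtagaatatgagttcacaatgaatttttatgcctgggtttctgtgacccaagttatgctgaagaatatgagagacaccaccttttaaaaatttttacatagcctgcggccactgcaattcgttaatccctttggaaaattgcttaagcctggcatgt
MANCR, chr10:4678021-4678320, minus strand: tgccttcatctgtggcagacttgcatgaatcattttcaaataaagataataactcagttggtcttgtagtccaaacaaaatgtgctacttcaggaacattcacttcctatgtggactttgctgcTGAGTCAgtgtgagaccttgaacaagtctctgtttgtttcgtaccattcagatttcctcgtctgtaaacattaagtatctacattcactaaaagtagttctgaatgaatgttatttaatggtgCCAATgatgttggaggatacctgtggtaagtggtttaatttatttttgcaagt
NORAD, chr20:36050911-36051210, minus strand: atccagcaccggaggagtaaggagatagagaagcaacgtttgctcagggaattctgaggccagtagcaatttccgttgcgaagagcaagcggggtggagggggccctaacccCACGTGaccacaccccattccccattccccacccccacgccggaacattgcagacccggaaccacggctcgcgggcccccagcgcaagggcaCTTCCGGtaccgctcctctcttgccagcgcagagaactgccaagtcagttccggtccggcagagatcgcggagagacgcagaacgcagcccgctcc
The AP-1 letters stood once in LINC01411, MYOSLID and MANCR, on the reverse strand in each. Promoters of LINC01638, XIST, SH3TC2-DT, LINC01687 and LINC02057 were selected by the same ranks but are not printed. None of those held the AP-1 letters, so the printed promoters are not a fair sample for this motif. The AP-1 letters were in 5 of 32 promoters of members that rose (15.6%), in 6 of 31 of members that fell (19.4%), in 12 of 141 of members that did not pass (8.51%) and in 4.92% of all 27305 promoters in the table. CCAAT was in 16 of 32 promoters of risers (50%), in 14 of 31 of those that fell (45.2%) and in 44 of 141 of the others (31.2%), and in 35.7% of all promoters. The GC box was in 17 of 32, 11 of 31 and 81 of 141 promoters in the same order, and in 44.6% of all promoters. A match is a description of letters and not of a site.

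The question was which lincRNAs changed in level with CB1 overexpression. In edgeR's quasi-likelihood test with Benjamini-Hochberg adjustment over all 19065 genes of at least 0.2 FPKM, 208 of the 1128 members passed an adjusted p of 0.05 (18.4%), against 42.7% of all genes tested. Of these, 126 were higher (11.2%) and 82 lower (7.27%) in CB1, against 20.8% higher and 21.9% lower among all genes tested. Of all 1128 members, 73 passed with a rise and 31 with a fall of more than 2-fold. Among all 19065 genes tested these were 898 (4.71%) and 498 (2.61%). Of the 937 members at the 0.2 FPKM minimum in both groups, 40 passed with such a rise and 22 with such a fall. The 3 CB1 and 3 Vector libraries did not overlap in 324 members (28.7%), against 52.7% of all genes tested. The median log2 change was 0.13 over members and 0.01 over all genes tested. Without CB1 replicate 1, 222 members passed, 182 of them shared with the 208. Without Vector replicate 2, 136 passed, and without each of Vector replicates 1, 2 and 3 the number lower in CB1 was 52, 50 and 52. In all 6 fits that left out 1 library, 103 members passed in the same direction, 66 higher and 37 lower.

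**Figure D1:**
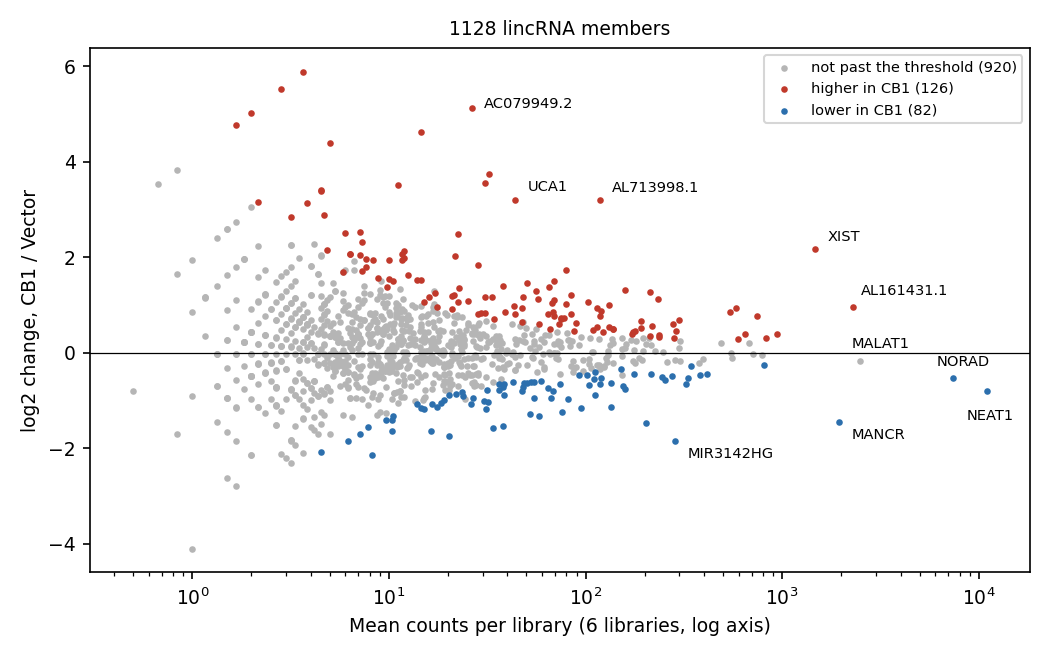
Each point is 1 of the 1128 lincRNA members, plotted by its mean counts per library (x, log axis) and its log2 change in CB1 against Vector (y). The 126 members higher in CB1 (red) and the 82 lower (blue) stand against 920 members in grey, whose spread is widest at low counts. Of the 6 members with over 1000 counts, XIST and AL161431.1 are higher, MANCR, NORAD and NEAT1 lower, and MALAT1 is grey.

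The share of members that passed followed their counts. The median member had 11.2 counts per library and 0.571 FPKM, against 573 counts and 6.11 FPKM for the median protein-coding gene tested. Of 521 members with under 10 counts per library, 31 passed (5.95%), of 100 members with 100 to under 500 counts, 52 passed (52.0%), and of 19 members with 500 or more, 13 passed (68.4%). Protein-coding genes at the same counts passed in 19.7%, 55.1% and 61.6%. At low levels the 0.2 FPKM minimum can be reached through 1 group alone. In all, 109 members reached it in CB1 but not in Vector, and 33 of them passed as higher, while 82 reached it in Vector but not in CB1, and 10 of them passed as lower. Of the 937 members at or above it in both groups, 165 passed (17.6%), 93 higher and 72 lower, with a median log2 change of 0.10.

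**Figure D2:**
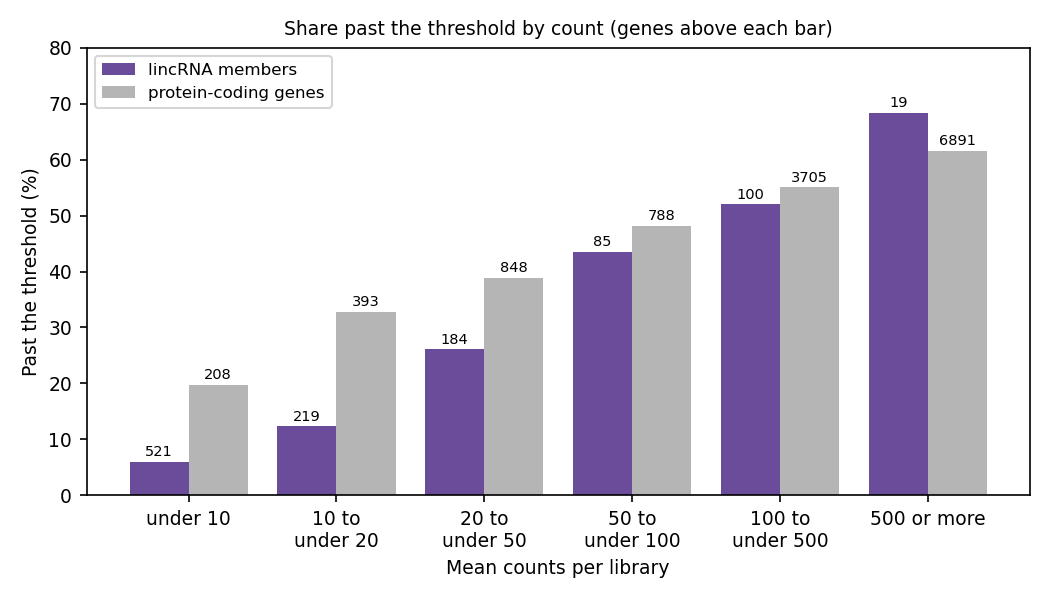
Bars give the percentage of lincRNA members (purple) and protein-coding genes (grey) past the threshold in each range of mean counts per library, with the number of genes above each bar. Both rise with counts, from 5.95% of members with under 10 counts to 68.4% with 500 or more.

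The 8 most abundant members by mean FPKM were NORAD, MANCR, SFTA1P, SNHG8, NEAT1, SNHG19, AL161431.1 and BX640514.2. NORAD, which binds Pumilio proteins and is linked to chromosome stability, had 59.4, 65.4 and 70.7 FPKM in CB1 and 92.5, 93.9 and 96.5 FPKM in Vector. All CB1 libraries lay below all Vector libraries, and the log2 difference was -0.53 ± 0.08 (SE of the fit, edgeR adjusted p = 5.78e-05). MANCR, a lincRNA named for its association with mitosis, had 29.2, 31.6 and 32.7 FPKM in CB1 and 83.2, 85.5 and 86.8 FPKM in Vector. It was 2.73-fold lower in CB1, with a log2 change of -1.45 ± 0.08 and the smallest adjusted p of the named members (8.67e-09). AL161431.1 had 36.5, 31.2 and 34.1 FPKM in CB1 and 18.2, 16.6 and 17.6 FPKM in Vector, a 1.94-fold rise (log2 0.96 ± 0.08, edgeR adjusted p = 5.82e-07). SFTA1P, annotated from a surfactant-associated pseudogene, had 50.7 ± 6.97 FPKM in CB1 and 43.7 ± 4.19 FPKM in Vector (SD, n = 3 libraries each), and its groups overlapped. BX640514.2 averaged 22.1 ± 1.46 FPKM in CB1 and 25.3 ± 0.739 FPKM in Vector and did not pass either, at an adjusted p of 0.144 in edgeR.

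NEAT1 and MALAT1 are neighbouring genes of chromosome 11 whose RNAs stay in the nucleus, NEAT1 in paraspeckles and MALAT1 in nuclear speckles. NEAT1 had 418, 459 and 494 CPM (counts per 1000000 of the scaled library) in CB1 and 837, 790 and 748 CPM in Vector. No library overlapped, and NEAT1 was 1.73-fold lower in CB1 (log2 -0.79 ± 0.08, edgeR adjusted p = 1.96e-06). MALAT1 had 116, 135 and 147 CPM in CB1 and 152, 149 and 146 CPM in Vector. CB1 replicate 3 lay within the range of Vector, and MALAT1 missed the threshold (log2 -0.17 ± 0.09, edgeR adjusted p = 0.134). Leaving out CB1 replicate 3, it was -0.25 with an adjusted p of 0.0263. In NORAD, NEAT1 and MALAT1, all with exonic lengths over 5000 bases, CB1 replicate 1 was the lowest of the CB1 libraries, and NORAD and NEAT1 passed without it. All 3 members of the list of nuclear and RNA-retention lincRNAs had a log2 change below 0, of which 2 passed, with a median of -0.53, against 0.01 over all genes tested. MALAT1 and the long isoform of NEAT1 end without a canonical poly(A) tail, and the libraries were made from RNA selected with oligo(dT).

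XIST, the RNA that coats and silences an X chromosome, had 48.7, 172 and 181 CPM in CB1 and 32.8, 25.3 and 31.0 CPM in Vector. CB1 replicate 1 was far below the other CB1 libraries and above all Vector libraries. The log2 change was 2.17 ± 0.33 (edgeR adjusted p = 8.89e-05), and over the fits with other settings or without 1 library it ran from 1.40 to 2.57. XIST passed without each library in turn. The exons of XIST share 7709 of 25264 bases with other annotated genes, TSIX among them, so its count is uncertain. FTX, a lincRNA near XIST on the same strand that hosts miR-374, miR-421 and miR-545, had 8.43, 7.48 and 8.05 CPM in CB1 and 5.79, 5.69 and 6.24 CPM in Vector, a log2 change of 0.43 ± 0.13 (edgeR adjusted p = 0.0164). Its call was lost without Vector replicate 1 (adjusted p = 0.0590) and without Vector replicate 2 (adjusted p = 0.0668), and 44.3% of its exonic bases are shared with other genes. The third member of the list of X inactivation and imprinting genes, LINC01139, is known as a kinase-binding RNA (LINK-A) and belongs to neither process. It had 9.61, 11.0 and 10.2 CPM in CB1 and 13.7, 14.1 and 14.1 CPM in Vector (log2 -0.44 ± 0.11, edgeR adjusted p = 0.00442).

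The 10 largest rises among members that passed, did not overlap between groups and had at least 10 counts per library in the higher group are given in turn. Their mean Vector level was 0.814 FPKM for AL713998.1, 1.35 FPKM for AP001628.1 and no more than 0.141 FPKM (AP000251.1) for the other 8. Those 8 reached the 0.2 FPKM minimum through CB1 alone. AC079949.2 and AC079949.1 lie 617 bases apart on opposite strands of chromosome 12 (chr12:127147149-127150081 and chr12:127145072-127146532). AC079949.2 had 41, 58 and 55 counts in CB1 and 1, 2 and 1 counts in Vector, a ratio of 38.0 after scaling (95% exact binomial interval 14.5 to 141). AC079949.1 had 16, 36 and 32 counts in CB1 and 0, 1 and 2 counts in Vector, a ratio of 27.6 (interval 9.13 to 137). Both passed, at adjusted p of 4.91e-07 and 3.90e-05 in edgeR. Their nearest protein-coding gene, TMEM132C, was 1117322 and 1120871 bases away.

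LINC01694 on chromosome 21 had 60, 53 and 68 counts in CB1 and 4, 2 and 7 counts in Vector. Its log2 change was 3.74 ± 0.35 (edgeR adjusted p = 1.54e-06), and its nearest protein-coding gene, PCBP3, an RNA-binding protein gene 40638 bases away, rose by 1.84 on the log2 scale. LINC01411 had 1.93, 3.69 and 3.91 CPM in CB1 and 0.229, 0.113 and 0.458 CPM in Vector, a log2 change of 3.55 ± 0.42 (edgeR adjusted p = 1.12e-05). MYOSLID, first described as a smooth muscle lincRNA, had 21, 23 and 18 counts in CB1 and 4, 0 and 1 counts in Vector, a ratio of 12.2 (95% exact binomial interval 4.97 to 39.0). Of its exonic bases, 32.5% are shared with AC009226.1. UCA1, which was named for urothelial cancer, had 4.92, 3.90 and 4.53 CPM in CB1 and 0.287, 0.733 and 0.401 CPM in Vector, and was 9.25-fold higher (log2 3.21 ± 0.29, edgeR adjusted p = 1.13e-06). The highest Vector library of UCA1 was below the lowest CB1 library.

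AL713998.1 had the most counts of these 10, with 126, 273 and 242 counts in CB1 and 23, 23 and 22 counts in Vector. It was 9.19-fold higher in CB1 (log2 3.20 ± 0.26, edgeR adjusted p = 4.46e-07), and CB1 replicate 1 had the lowest of the CB1 values. AP001628.1 had 41, 36 and 38 counts in CB1 and 11, 3 and 6 counts in Vector (log2 2.48 ± 0.38, edgeR adjusted p = 0.000106), and its nearest protein-coding gene WDR4, which encodes a subunit of a transfer RNA methyltransferase, rose by 0.97 on the log2 scale. AP000251.1 had 11, 12 and 14 counts in CB1 and 5, 0 and 1 counts in Vector, a ratio of 6.08 (95% exact binomial interval 2.54 to 17.6). LINC01638 had 4, 22 and 5 counts in CB1 and 3, 1 and 1 counts in Vector, and most of its CB1 counts came from replicate 2. Without CB1 replicate 2 its log2 change was 1.37 with an adjusted p of 0.262, and its call was also lost without Vector replicate 2 (0.0963) and Vector replicate 3 (0.0865).

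A further 6 members had no count in any Vector library, and 4 of them passed. AC113346.1 had 7, 5 and 10 counts in CB1 and was at least 7.23-fold higher than a Vector group set to 3 counts in total. AC027271.1, Z83851.1 and CNNM3-DT had 17, 12 and 10 counts over the CB1 group, at least 5.59-fold, 3.94-fold and 3.29-fold higher. These genes were outside the rule for named genes and were chosen after their values were seen. AC113346.1 lies 89134 bases from MSX2, a homeobox gene that rose by 4.57 on the log2 scale.

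A list of markers of HEK293T, the human kidney line commonly used to package lentiviral particles, was also read. All 7 tested genes of the 9 on that list were higher in CB1, against 20.8% of all genes tested. The list was chosen with earlier results of these data known, so this share is a description and not a test. The summed level of the list was 73.0 to 83.6 CPM in CB1 and 16.2 to 18.9 CPM in Vector. Of the 10 MDA-MB-231 markers, 7 were higher and 1 lower. Their summed level was 7755 to 8438 CPM in CB1 and 5806 to 6007 CPM in Vector. On the HEK293T list, IGF2BP1 had 403, 580 and 602 counts in CB1 and 34, 32 and 23 counts in Vector. LIN28B had 72, 60 and 106 counts in CB1 and 11, 7 and 8 counts in Vector. ZIC2 was well above the floor in both groups, with 450, 478 and 476 counts in CB1 and 249, 227 and 248 counts in Vector. Its log2 change was 0.93. PAX2 and DPPA4, below the minimum for testing, had 8 to 15 and 0 to 2 counts in CB1 and 0 to 2 and 0 counts in Vector. Their part in the rises of low members was not tested. In bulk libraries, more cells of a type and more RNA per cell cannot be told apart.

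**Figure D3:**
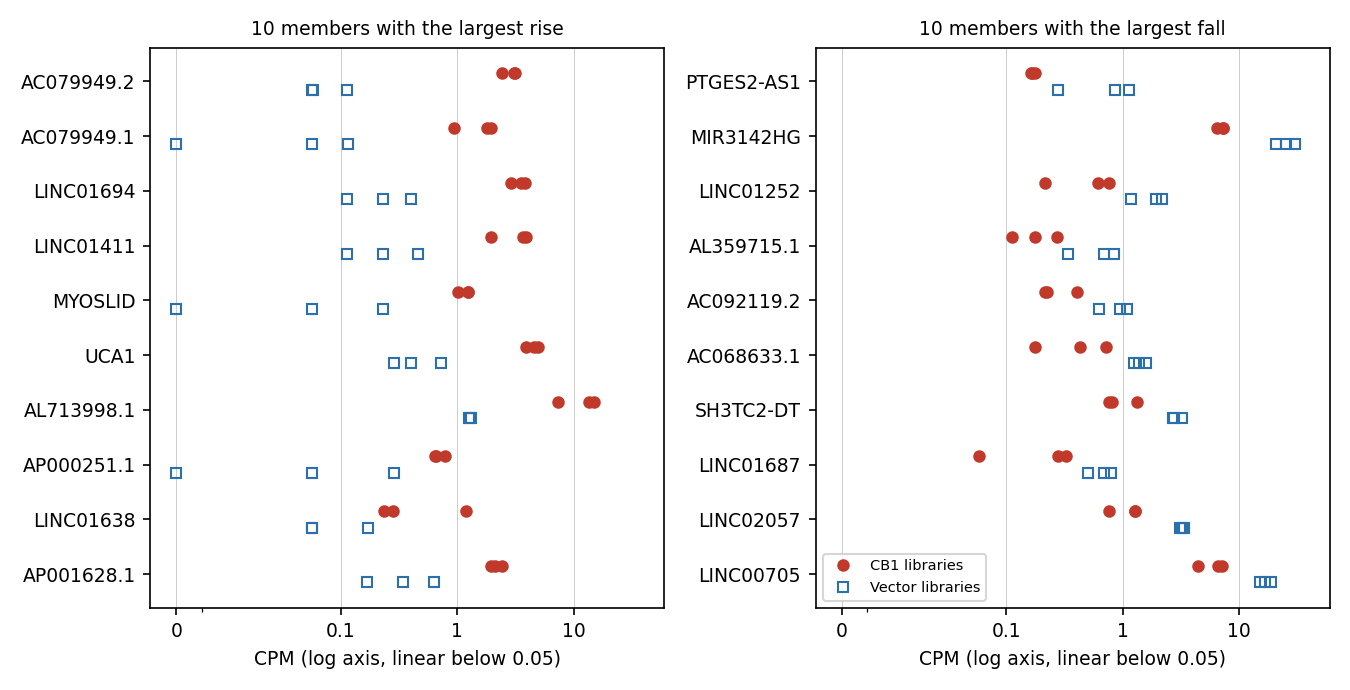
CPM of the 10 members with the largest rise (left) and the 10 with the largest fall (right) in each library, on a log axis that is linear below 0.05, with CB1 libraries as red circles and Vector libraries as blue squares. No CB1 library overlaps a Vector library in any row, and among the rises AC079949.1, MYOSLID and AP000251.1 have a Vector library at 0.

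The largest falls included more abundant genes. MIR3142HG on chromosome 5 (chr5:160438594-160487426) hosts miR-3142 and miR-146a, a miRNA known to dampen NF-kappa-B signalling. It had 125, 118 and 130 counts in CB1 and 358, 536 and 439 counts in Vector. The log2 change was -1.85 ± 0.14 (edgeR adjusted p = 2.49e-07), a 3.62-fold lower level, and it passed in each of the 13 other fits. LINC02057 had 1.29, 0.759 and 1.29 CPM in CB1 and 3.39, 3.21 and 3.09 CPM in Vector (log2 -1.54 ± 0.25, edgeR adjusted p = 0.00016). SH3TC2-DT, which starts 154 bases from SH3TC2 on the other strand, had 13, 15 and 24 counts in CB1 and 47, 49 and 56 counts in Vector (log2 -1.56 ± 0.27, edgeR adjusted p = 0.000266). SH3TC2, a gene of peripheral nerve myelination, fell as well, by 0.44 on the log2 scale (edgeR adjusted p = 0.00866).

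MANCR and LINC00705 overlap on opposite strands of chromosome 10 (chr10:4650185-4678154 and chr10:4655427-4662419). LINC00705 had 4.45, 7.10 and 6.59 CPM in CB1 and 18.6, 15.2 and 16.8 CPM in Vector, a log2 change of -1.47 ± 0.16 (edgeR adjusted p = 3.99e-06), next to -1.45 for MANCR. Their exons share 219 bases, 11.4% of the exonic length of MANCR and 12.6% of that of LINC00705, and how counting treated strand in that stretch is unknown. LINC00702, a lincRNA on the same arm that was chosen after its values were seen (chr10:4201141-4243912), had 20, 15 and 26 counts in CB1 and 31, 56 and 35 counts in Vector (log2 -1.01 ± 0.31, edgeR adjusted p = 0.0144). Its call was lost without CB1 replicate 2 (adjusted p = 0.0740) and without Vector replicate 2 (adjusted p = 0.120). LINC00702 reached the 0.2 FPKM minimum through Vector alone, at a mean of 0.171 FPKM in CB1 and 0.345 FPKM in Vector. The nearest protein-coding gene of MANCR and LINC00705, the aldo-keto reductase gene AKR1E2, fell by 0.31 on the log2 scale (edgeR adjusted p = 0.00878).

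The other large falls were in genes with few counts. PTGES2-AS1, LINC01252, LINC01687 and AC092119.2 reached the 0.2 FPKM minimum through Vector alone. Their mean levels ran from 0.0813 FPKM (PTGES2-AS1) to 0.193 FPKM (AC092119.2) in CB1. In Vector they ran from 0.367 FPKM (PTGES2-AS1) to 0.605 FPKM (AC092119.2). AC068633.1 and AL359715.1 were above the minimum in both groups. PTGES2-AS1, which starts 67 bases from PTGES2 on the other strand, had 3, 3 and 3 counts in CB1 and 15, 5 and 20 counts in Vector, a ratio of 0.222 (95% exact binomial interval 0.0946 to 0.464). PTGES2, a prostaglandin E synthase gene, was higher in CB1, by 0.52 on the log2 scale. The call of PTGES2-AS1 was lost without Vector replicate 3 (adjusted p = 0.0891). LINC01252 had 13, 4 and 11 counts in CB1 and 38, 21 and 34 counts in Vector (log2 -1.74 ± 0.41), and AC068633.1 had 3, 8 and 13 counts in CB1 and 22, 28 and 24 counts in Vector (log2 -1.63 ± 0.42). Both passed without each library in turn. The remaining 3 did not hold in the same way. The call of AC092119.2 (log2 -1.64) was lost without Vector replicate 2 (0.0501) and Vector replicate 3 (0.0654), and that of AL359715.1 (log2 -1.71) without CB1 replicate 3 (0.0974), Vector replicate 1 (0.0932) and Vector replicate 2 (0.148). LINC01687 (log2 -1.54, edgeR adjusted p = 0.0452) kept its call only without CB1 replicate 2 among the 6 fits that left out 1 library, with adjusted p from 0.0617 to 0.143 in the other 5.

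Of the 28 members on the list of small RNA hosts, 9 rose, 7 fell and 12 missed the threshold, where 20.8% of all genes tested were higher and 21.9% lower. Their median log2 change was 0.07, against 0.01 over all genes tested. In all 57.1% passed, at a median of 144 counts per library. Of all members with 100 to under 500 counts, 52.0% passed. By position and strand, 22 members held 39 different miRNA hairpins, and 8 of these hosts were higher, 6 lower and 8 not called. MIR210HG, host of the hypoxia-induced miR-210, had 20.4, 17.9 and 16.1 CPM in CB1 and 9.01, 9.13 and 6.87 CPM in Vector, a 2.17-fold rise (log2 1.12 ± 0.13, edgeR adjusted p = 1.22e-05). MIR137HG had 328, 384 and 398 counts in CB1 and 220, 222 and 239 counts in Vector (log2 0.68 ± 0.10, edgeR adjusted p = 8.31e-05). It lies partly within DPYD, the gene of the first enzyme of pyrimidine breakdown, and DPYD fell by 0.65 on the log2 scale. MIR193BHG was 2.08-fold higher in CB1, at 33, 26 and 32 counts against 12, 19 and 12 counts in Vector, and its call was lost without Vector replicate 1 (0.0569) and Vector replicate 3 (0.0560). It reached the 0.2 FPKM minimum through CB1 alone, at a mean of 0.286 FPKM in CB1 and 0.136 FPKM in Vector.

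MIR222HG, host of miR-221 and miR-222, had 180, 220 and 217 counts in CB1 and 292, 322 and 284 counts in Vector (log2 -0.56 ± 0.11, edgeR adjusted p = 0.000642). MIR503HG, host of miR-503, had 116, 97 and 106 counts in CB1 and 144, 184 and 159 counts in Vector (log2 -0.63 ± 0.15, edgeR adjusted p = 0.00277). MIR29B2CHG had 83, 132 and 142 counts in CB1 and 210, 188 and 196 counts in Vector (log2 -0.76 ± 0.16, edgeR adjusted p = 0.0013), and limma on log2(FPKM + 1) did not call it (adjusted p = 0.0577). AC016831.6 on chromosome 7, host of miR-29a and of the other miR-29b copy, had 81, 58 and 71 counts in CB1 and 56, 44 and 37 counts in Vector (log2 0.60 ± 0.22, edgeR adjusted p = 0.038). Its call was lost without CB1 replicate 1 (0.0969), CB1 replicate 3 (0.0766), Vector replicate 2 (0.116) and Vector replicate 3 (0.155), and 39.9% of its exonic bases are shared with other genes, LINC-PINT among them. In MIR222HG, MIR503HG and MIR29B2CHG every CB1 library was below every Vector library. LINC00324 fell as well, with 22, 21 and 15 counts in CB1 and 48, 44 and 37 counts in Vector (log2 -1.17 ± 0.26, edgeR adjusted p = 0.00216). It was on the list of hosts, but no other annotated gene overlaps it, so no small RNA is annotated inside it here. MIR22HG, MIR4435-2HG and LINC-PINT did not pass, with log2 changes of 0.21 ± 0.09, -0.03 ± 0.09 and 0.03 ± 0.17.

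Hosts of small nucleolar RNAs differed between CB1 replicate 1 and the other CB1 libraries. SNHG8 had 636, 525 and 462 counts in CB1 and 523, 572 and 636 counts in Vector, and SNHG19 had 182, 110 and 96 counts in CB1 and 173, 157 and 201 counts in Vector. Neither passed with all libraries (adjusted p = 0.513 and 0.0868 in edgeR), while without CB1 replicate 1 both passed as lower, at log2 changes of -0.27 (adjusted p = 0.00779) and -0.83 (adjusted p = 6.69e-06). SNHG15 had 756, 662 and 568 counts in CB1 and 504, 559 and 538 counts in Vector (log2 0.29 ± 0.11, edgeR adjusted p = 0.044). Its call was lost in 5 of the 6 fits that left out 1 library, all but that without CB1 replicate 3, with adjusted p from 0.0818 to 0.154. CB1 replicate 1 was the highest CB1 library in 5 of the 7 SNHG members. SNHG4 rose by 0.30 ± 0.08 on the log2 scale (edgeR adjusted p = 0.00882), with its call lost without Vector replicate 1 (0.0576). SNHG18, with 75, 109 and 91 counts in CB1 and 38, 45 and 48 counts in Vector, was 2.06-fold higher (edgeR adjusted p = 0.000378) and kept its call without each library.

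**Figure D4:**
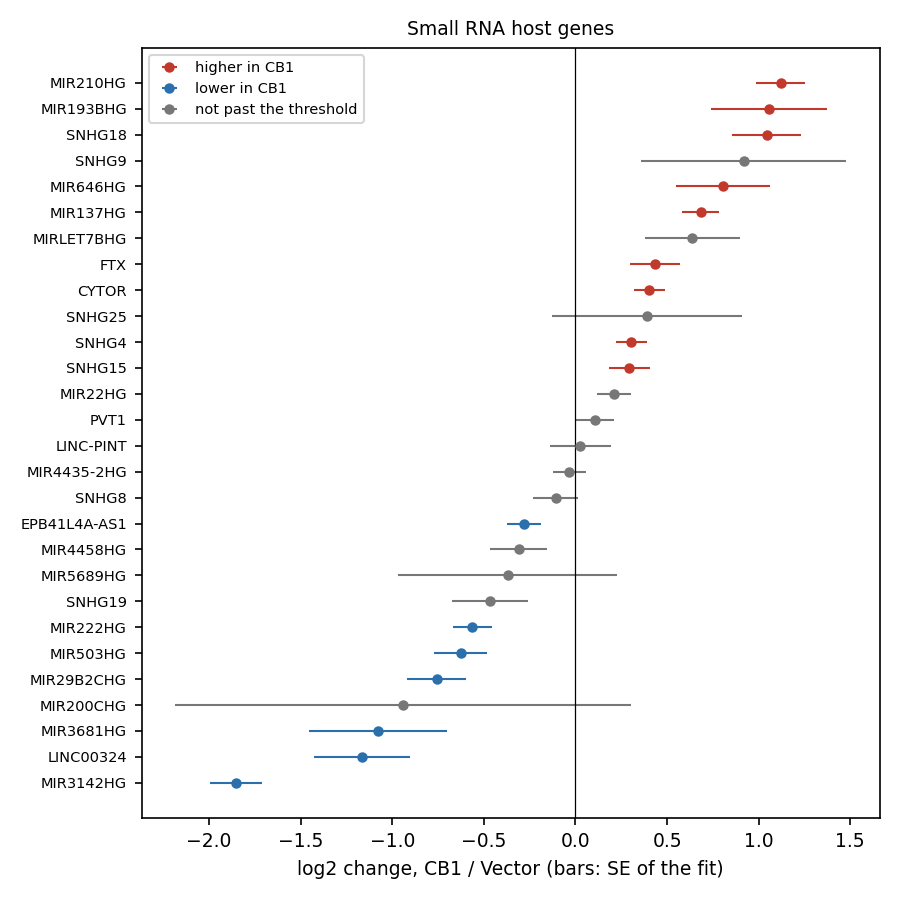
Log2 change in CB1 against Vector (x) of the 28 members on the list of small RNA hosts, with bars for the standard error of the fit, from MIR210HG at 1.12 (top) to MIR3142HG at -1.85 (bottom). Red points are higher, blue points lower and grey points not past the threshold, and the 16 that passed lie on both sides of 0.

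Of the 8 members on the list of stress and signalling lincRNAs, 4 rose, 1 fell and 3 did not pass (median log2 change 0.37, against 0.01 over all genes tested, of which 20.8% were higher and 21.9% lower). The median of these 8 was 260 counts per library, in a range where 52.0% of members passed. Beside MIR210HG, LINC01638 and MIR3142HG, CYTOR, a cytoplasmic lincRNA linked to cell growth, had 64.0, 59.2 and 57.8 CPM in CB1 and 45.4, 48.9 and 42.6 CPM in Vector (log2 0.40 ± 0.08, edgeR adjusted p = 0.00125). LINC00941 rose by 0.34 ± 0.12 on the log2 scale (edgeR adjusted p = 0.0287), but its call was lost without CB1 replicate 2 (0.0899), CB1 replicate 3 (0.0622), Vector replicate 2 (0.142) and Vector replicate 3 (0.108). Of the 5 members listed as p53 targets, NEAT1 fell and the other 4 did not pass. TP53TG1 had 13, 14 and 12 counts in CB1 and 7, 7 and 18 counts in Vector, and its groups overlapped.

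Of the 11 members on the cancer-associated list, 4 rose, 3 fell and 4 did not pass (median log2 change 0.26). Among all genes tested 20.8% were higher and 21.9% lower, with a median of 0.01. The median of these 11 was 172 counts per library, in a range where 52.0% of members passed. Beside UCA1, LINC01116 had 21.0, 18.2 and 17.9 CPM in CB1 and 14.5, 11.8 and 11.6 CPM in Vector (log2 0.60 ± 0.12, edgeR adjusted p = 0.00076), and LINC00707 had 71, 69 and 61 counts in CB1 and 34, 32 and 22 counts in Vector (log2 1.17 ± 0.22, edgeR adjusted p = 0.000583), though limma on log2(FPKM + 1) did not call it (adjusted p = 0.0698). LINC00707 reached the 0.2 FPKM minimum through CB1 alone, at a mean of 0.388 FPKM in CB1 and 0.172 FPKM in Vector. LINC01605 rose by 0.40 ± 0.13 on the log2 scale, and lost its call without CB1 replicate 2 (0.113), Vector replicate 1 (0.111) and Vector replicate 3 (0.0768). CRNDE, named for its level in colorectal tumours, had 23.5, 17.4 and 19.2 CPM in CB1 and 25.8, 28.7 and 26.4 CPM in Vector (log2 -0.43 ± 0.11, edgeR adjusted p = 0.00554). LINC00662 had 129, 118 and 110 counts in CB1 and 182, 198 and 189 counts in Vector (log2 -0.69 ± 0.13, edgeR adjusted p = 0.000521). LINC00839 fell by 0.54 ± 0.17 on the log2 scale (edgeR adjusted p = 0.016), with its call lost without CB1 replicate 2 (0.0644), CB1 replicate 3 (0.0596), Vector replicate 2 (0.0599) and Vector replicate 3 (0.0899). PVT1, the lincRNA beside MYC, had 17.5 ± 1.58 CPM in CB1 and 16.2 ± 0.409 CPM in Vector (SD, n = 3 libraries each) and did not pass, and LINC00467 passed only without CB1 replicate 3 among those fits (log2 0.37, adjusted p = 0.0149).

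Members were also described by name, structure and place. Of 768 members named after a clone, 106 passed (13.8%), of 203 with a LINC number, 53 (26.1%), and of 22 with a small RNA host name, 12 (54.5%). Their median counts per library were 8.67, 17.5 and 144. Members with 1 block of exons passed in 55 of 384 (14.3%) and those with 2 or more in 153 of 744 (20.6%). Another annotated gene overlapped 528 members, of which 112 passed (21.2%), and 96 of the 600 without such an overlap passed (16.0%). Among the 67 members that overlap a protein-coding gene on the same strand, 13 rose (19.4%) and 2 fell (2.99%). Over all members 11.2% rose and 7.27% fell, and over all genes tested 20.8% and 21.9%. Reads in any exon these 67 share with the coding gene cannot be told apart.

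By chromosome, 7 of 20 members on chromosome 22 rose and none fell, and 14 of 67 rose and 2 fell on chromosome 19. Protein-coding genes ran the same way there, 48.8% higher and 6.83% lower on chromosome 22 and 47.9% higher and 16.0% lower on chromosome 19, against 26.3% and 29.5% of all protein-coding genes tested. On chromosome 21, 7 of 21 members rose and 2 fell, LINC01694, AP001628.1 and AP000251.1 among the risers, while protein-coding genes there were 24.8% higher and 24.8% lower. Of 17 pairs of called members within 100 kb of each other, 15 moved the same way, 11 up and 4 down. The others were PICART1 with AC002401.4 and MIR222HG with AC234772.2. Of all 208 called members, 60.6% were higher. Among the pairs, AC079949.1, AC079949.2 and Z83851.1 reached the 0.2 FPKM minimum through CB1 alone. Members of that kind were called higher or not at all, so part of the agreement follows from the minimum. Some of the 17 pairs overlap, MANCR with LINC00705 and NUP50-DT with Z82243.1 among them, where a strand-blind count could mix or lose reads of both genes. No test of the pairs was made.

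The nearest protein-coding gene was tested for 164 of the 208 members that passed. It moved the same way in 65 (39.6%), the opposite way in 52 and did not pass in 47. Of 102 members that rose, 36 had a neighbour that rose and 39 one that fell, and of 62 members that fell, 29 had a neighbour that fell and 13 one that rose. Among all protein-coding genes tested, 26.3% rose and 29.5% fell. Within 50 kb the neighbour moved the same way in 52 of 125, and among members without an overlapping gene in 34 of 78. Neighbours and members come from the same libraries, and no test was made.

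Of the 177 members that start head-to-head with a protein-coding gene within 1000 bases, 30 passed (16.9%). Among all members 18.4% passed, and among all genes tested 42.7%. Of the 29 called members with a tested partner, 12 moved with it, 11 against it and 6 had a partner that did not pass. Among all protein-coding genes tested, 26.3% were higher and 29.5% lower. SOX21-AS1 and SOX21, a transcription factor gene of neural progenitors, rose together by 1.52 and 1.49 on the log2 scale. SUCLG2-AS1 and SUCLG2, which encodes a subunit of succinyl-CoA ligase, fell together by 0.46 and 0.59. In the opposite direction, ZNF236-DT rose by 1.13 while ZNF236 fell by 0.76, and AC007249.2 fell by 0.95 while ODC1, the first enzyme of polyamine synthesis, rose by 0.60. HIF1A-AS2, which lies within HIF1A, rose by 0.71 while HIF1A fell by 1.00. These pairs were chosen after their values were seen, and for overlapping pairs a strand-blind count could mix or lose reads of both genes.

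**Figure D5:**
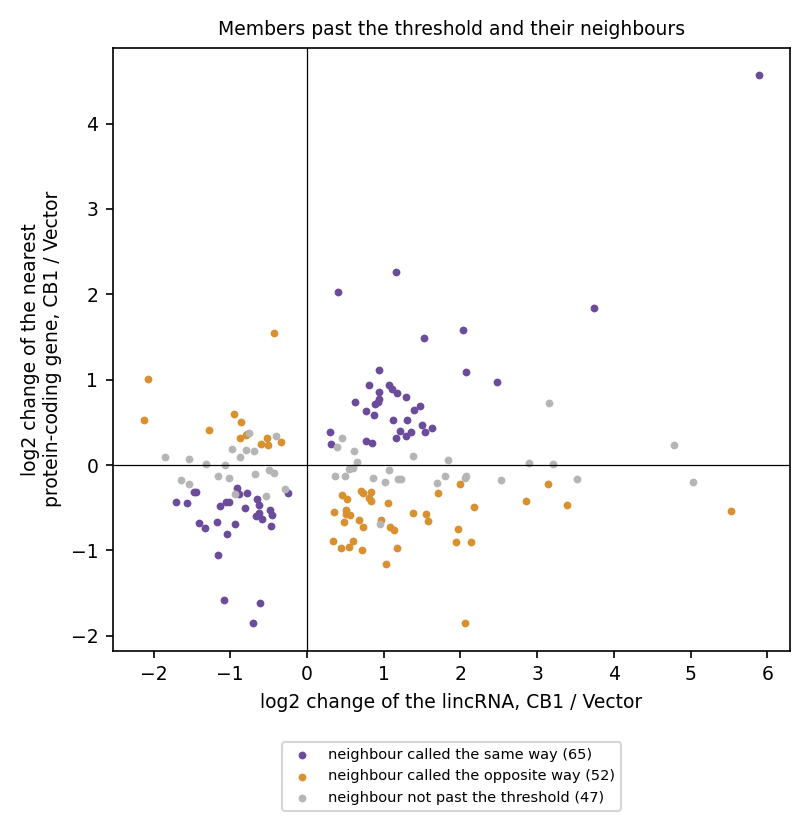
Log2 change of each called member with a tested neighbour (x) against that of its nearest protein-coding gene (y), both CB1 against Vector. Purple points (65) moved the same way, orange points (52) the opposite way and grey points (47) had a neighbour that did not pass, and the point at the upper right is AC113346.1 beside MSX2 (the lincRNA had 0 Vector counts, so its fitted change is not a bound).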

How the data were processed

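RNA was sequenced from 3 CB1 and 3 Vector libraries, grouped by their titles. The authors isolated mRNA on oligo(dT) and kept reads mapped uniquely to exons. HISAT2 2.0.5 and featureCounts 1.5.0-p3 are named in the submitters' processing notes. Raw integer counts were deposited without normalization. The deposited FPKM equal counts over gene length and library total, times 1 constant per library. Since no source here states the strand setting of the counting, values of antisense and overlapping genes carry that doubt. Coordinates and strands of all 1128 members were equal to those of GENCODE release 29 (GRCh38).

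The 19065 genes averaging 0.2 FPKM or more were tested on their counts with edgeR 4.0.16 (quasi-likelihood, TMM, two-sided, Benjamini-Hochberg over all genes, threshold 0.05) in R 4.3.3, and a common biological coefficient of variation of 8.61% was found. CPM are counts per 1000000 of the scaled library. Where a group had few counts, ratios carry a 95% exact binomial interval, and a group at 0 was given 3 counts in total, which accounts for counting error alone. The procedure was tested on simulated data. Alternatives were DESeq2 1.42.0, limma 3.58.1 on log2(FPKM + 1) and log2(FPKM + 0.1), library totals without TMM, a minimum of 0.5 FPKM or none, a replicate block, leaving out each library, members at the minimum in both groups, and members overlapping no gene. The nearest protein-coding gene was found by distance between annotated spans, and where several were equally near the first in the annotation was used.

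The members and lists were chosen with earlier results of these data known. Named members were up to 6 by mean FPKM of each of 6 role lists, the 8 most abundant, and the 10 largest rises and 10 largest falls past the threshold without overlap and with at least 10 counts per library on average in the higher group. Others are marked in the text. Beside these, MIR222HG, MIR503HG, MIR137HG, MIR29B2CHG, SNHG18, LINC00702, LINC00707, LINC00662, MIR193BHG, LINC00324 and AC016831.6 were chosen after their values were seen.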

Additional observations from a re-analysis of the deposited data

How the results depend on the processing

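Depth limits these results, since 521 of the 1128 members had under 10 counts per library. The number of members past the threshold was 208, and it stayed within 1.5 times that under the other tests, scalings and minimums, from 149 with DESeq2 (102 higher and 47 lower) to 208 without a minimum. Leaving out 1 library gave 136 to 222 members, 86 to 136 higher and 50 to 86 lower. Restricted to members overlapping no other gene, 96 passed, 55 higher and 41 lower, and in that set 34 moved with their nearest protein-coding gene, against 65 over all. These lower counts follow from the smaller set. No member that passed was called in the opposite direction under any other fit. The replicate numbers did not pair the libraries (correlations of deviations -0.13, -0.06 and -0.03 for same-numbered libraries). The fit with a replicate block gave 196 members, 123 higher and 73 lower.

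Over the named members and their alternative fits, 650 values kept their direction and side of the threshold, 72 lost the call, 9 gained one and 8 changed sign. Sign changes occurred for LINC-PINT (-0.00344 with no minimum, -0.0335 without TMM, -0.166 without CB1 replicate 3, -0.0065 without Vector replicate 1), MIR4435-2HG (0.00654 without CB1 replicate 1, 0.00134 without CB1 replicate 2, 0.0104 without Vector replicate 1) and SNHG8 (0.000453 without CB1 replicate 3). Leaving out 1 library gave -0.166 to 0.146 for LINC-PINT, -0.110 to 0.0104 for MIR4435-2HG and -0.274 to 0.000453 for SNHG8. None of these 3 passed with all libraries, and the cause was not tested. Both limma fits ended the calls of AC016831.6, FTX, LINC00702, LINC00707, LINC00941, LINC01638, LINC01687, MIR193BHG, MIR29B2CHG, PTGES2-AS1 and SNHG15. LINC01687 lost its call with the replicate block, where its log2 change was -1.57 (adjusted p = 0.0608), and SNHG19 passed with it at -0.50 (adjusted p = 0.0133).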
